A study of Rattus norvegicus with 74 samples.

Results

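Carboxylesterases of the Ces1 and Ces2 groups were followed in the liver of young Wistar Han rats given brominated flame retardants or reference chemicals. Their members were every probe set on an Affymetrix rat expression array whose gene symbol begins with Ces1 or Ces2, a rule that uses names and no measured value, although the genes were singled out with the rise of Ces2c known. It found 6 of the 31042 probe sets left after the array's controls: Ces2c (1368905_at), Ces1d (1370363_at), Ces1e (1387214_at), Ces1c on 2 probe sets (1371100_at and 1397427_at), and a probe set listed for both Ces1f and Cesl1 (1370352_at). The last is written Ces1f/Cesl1 below, because its signal cannot be divided between those genes. The rat reference gene list holds 20 genes of the Ces1 and Ces2 groups, 6 of Ces1 and 14 of Ces2, and 16 of them code for protein. Only 5 of these genes are named on a probe set here, so Ces2c alone stands for the Ces2 group. Whether its probes also read transcripts of near copies was not tested.

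Carboxylesterases are serine hydrolases that cleave ester and amide bonds. The liver holds most of them inside the endoplasmic reticulum, where they hydrolyse drugs and prodrugs, pyrethroid insecticides, and lipid esters such as triacylglycerol. Enzymes of the Ces1 group are known to favour esters with a large acyl and a small alcohol part, and those of the Ces2 group the reverse. The nuclear receptors CAR and PXR, which phenobarbital and many halogenated chemicals activate, are known to raise transcription of several hydrolases along with cytochrome P450 genes. The aryl hydrocarbon receptor, AhR, has its own targets, with Cyp1a1 as the best known, and is the receptor of dioxin-like chemicals such as PCB126.

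The data cover 74 liver arrays in 15 groups, all from Wistar Han rats (Crl:WI (Han)) dosed by oral gavage and sampled on postnatal day 22. BDE-47, a single tetrabrominated diphenyl ether that the labels call PBDE-47, and DE-71, a commercial mixture of polybrominated diphenyl ethers that contains BDE-47, were each given at 0, 0.1, 15 and 50 mg/kg. Their labels give dosing of the dams from gestation day 6 to 21 and of the pups from postnatal day 12 to 21. Phenobarbital was given at 0, 5 and 45 mg/kg, and PCB126, a dioxin-like polychlorinated biphenyl, at 0, 10, 50 and 250, written as mg/kg in the labels (the unit was not checked). The general description for all samples is exposure before and after birth, and dosing days for phenobarbital and PCB126 are not given. Each group held 5 arrays, except DE-71 at 50 mg/kg with 4 (replicates 2 to 5). Neither sex nor litter is given, so p values here cover only the spread among the arrays of a group.

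Values are log2 expression per probe set after robust multi-array average (RMA), so 1 unit is a doubling of signal, and levels of different probe sets cannot be compared. The arrays were even, with medians of 4.82 to 5.04. Among 656 pairs of arrays of the same agent, 4 were nearly identical: a pair within BDE-47 0 mg/kg (replicates 3 and 4), a pair within DE-71 15 mg/kg (replicates 1 and 2), and 2 pairs that join different doses. Whether nearly identical arrays come from different animals was not tested, also where their dose labels differ. The pairs within a group were averaged and counted as 1 sample each, leaving 72 samples. Replicate 3 of BDE-47 15 mg/kg matched replicate 3 of 50 mg/kg, and replicate 5 of DE-71 15 mg/kg matched replicate 4 of 50 mg/kg. These stayed in the fit. For the carboxylesterases, called changes, steps and differences between the agents that rest on them are also given without them. Changes of other genes are given only with them. The mean over 7 hepatocyte markers ran from 13.08 to 13.5 across the 15 groups. At the highest dose it was 13.17 for BDE-47 against 13.36 in controls, and 13.08 for DE-71 against 13.32. Phenobarbital gave 13.37 against 13.50, and PCB126 13.39 in both. Means over the pancreas and gut markers ran from 4.78 to 5.36, the highest for gut at 50 mg/kg of DE-71 (5.02 in its controls). In bulk tissue, fewer cells of a type and less RNA per cell cannot be told apart.

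Reference sequences upstream of the gene starts are shown for Ces2c, which rose most, and for Ces1f and Ces1e, to let their letters be compared. The probe set that Ces1f shares with Cesl1 had a smaller rise, which cannot be assigned to either gene. Ces1e had no call. Each is the 250 bases before the annotated start, from RefSeq on rat build GRCr8, written 5′ to 3′ on the gene's strand. Capitals mark matches, on either strand, to a CCAAT box or to AGTTCA, a variant of the hexamer AGGTCA that nuclear receptors bind.
Ces2c, chr1:270376951-270377200, plus strand: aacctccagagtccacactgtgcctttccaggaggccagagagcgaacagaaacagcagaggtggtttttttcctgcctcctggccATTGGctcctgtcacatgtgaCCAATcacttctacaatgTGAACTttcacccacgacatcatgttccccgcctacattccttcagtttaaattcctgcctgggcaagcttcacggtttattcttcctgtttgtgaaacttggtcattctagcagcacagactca
Ces1f, chr19:29969383-29969632, plus strand: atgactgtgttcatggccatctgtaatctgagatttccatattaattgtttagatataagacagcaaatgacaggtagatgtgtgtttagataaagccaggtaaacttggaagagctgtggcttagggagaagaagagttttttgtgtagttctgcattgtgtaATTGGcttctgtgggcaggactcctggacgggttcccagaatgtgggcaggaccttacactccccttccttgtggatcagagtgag
Ces1e, chr19:30005923-30006172, plus strand: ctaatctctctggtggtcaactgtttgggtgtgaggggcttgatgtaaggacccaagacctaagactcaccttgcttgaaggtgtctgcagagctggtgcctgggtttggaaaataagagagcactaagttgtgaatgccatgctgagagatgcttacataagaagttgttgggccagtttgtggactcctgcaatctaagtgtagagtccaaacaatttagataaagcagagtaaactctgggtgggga

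Ces2c lies on chromosome 1, between the pseudogenes Ces2c-ps1 and Ces2e-ps1. The measured Ces1 genes stand next to each other on chromosome 19 in the order Ces1f, Ces1e, Ces1d and Ces1c. Searched on both strands in the 250 bases, Ces2c held AGTTCA once, 125 bases before the start, and CCAAT at 164 and 143 bases before it, with no overlap among them. It held neither AGGTCA nor GCGTG, the core letters of the AhR response element, nor TATAAA. Ces1f held a single CCAAT, 86 bases before its start, and Ces1e held none of these motifs. Such letters are common: of 33469 rat promoter windows of this length, 12.22% held AGTTCA, 14.06% AGGTCA, 25.89% GCGTG, 34.02% CCAAT and 12.93% TATAAA. The window of Ces1d held GCGTG and 2 CCAAT boxes, that of Ces1c held AGTTCA and CCAAT, and that of Cesl1 held AGTTCA at 2 places. Cesl1 shares its probe set with Ces1f, so the windows of both belong beside the rise of Ces1f/Cesl1. When aligned over 250 bases, the upstream letters of Ces2c were 78.4% identical to those of Ces2b and 78.0% to those of Ces2, genes with no named probe set here. Identity to Ces1f was 57.2%, to Ces1e 58.0%, to Ces1d 56.4% and to Ces1c 53.6%. The alignment allowed gaps, and windows of unrelated genes were not aligned, so how much of this identity unrelated letters would reach is not known. The matches describe letters in a reference genome and were not tested as binding sites.

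Ces2c, the enzyme of the Ces2 group, rose at the middle and high doses of both flame retardants and at both doses of phenobarbital, and was not called at any dose of PCB126. In the BDE-47 0 mg/kg group its log2 level was 8.22, 8.22, 8.06, 7.74 and 7.91 in replicates 1 to 5. At 0.1 mg/kg the 5 values were 7.39, 7.88, 7.97, 8.31 and 8.45. Both groups thus covered the same low range. At 15 mg/kg the values were 10.82, 11.62, 11.82, 11.71 and 11.38, and at 50 mg/kg they were 11.78, 11.89, 11.77, 12.09 and 12.08. Every sample at 15 and at 50 mg/kg lay above every control sample, with a gap of over 2 log2 units. The change was 3.41 at 15 mg/kg (95% interval 2.90 to 3.91, 10.6-fold, n = 5 against 4, limma adjusted p = 1.89e-15). It was 3.86 at 50 mg/kg (3.35 to 4.37, 14.5-fold, limma adjusted p = 5.13e-18). Ces2c had the lowest p of all 31042 probe sets in both comparisons and ranked 5 by size in each. Without the matched arrays of 15 and 50 mg/kg the changes were 3.32 and 3.90.

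**Figure D1:**
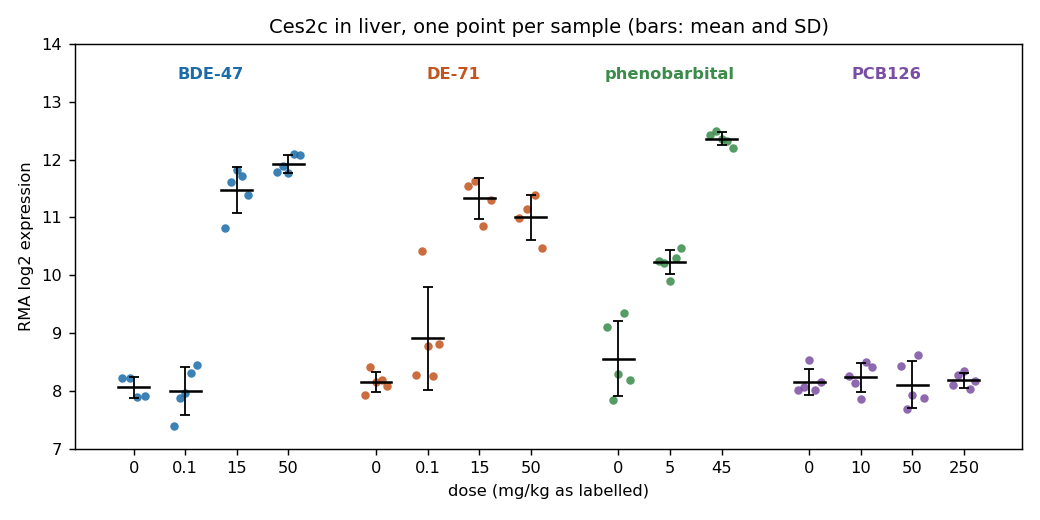
Log2 expression of Ces2c in each sample (points) by agent and dose, with group means and SD (bars); averaged arrays are a single point. Samples given 15 or 50 mg/kg of either flame retardant or either dose of phenobarbital lie above every 0 mg/kg sample of their agent, while all PCB126 samples lie between 7.69 and 8.63.

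DE-71, the mixture, raised Ces2c at the same doses. Its 0 mg/kg samples read 7.93, 8.41, 8.16, 8.19 and 8.09. The 15 mg/kg group read 11.55, 11.53, 11.63, 10.85 and 11.29 in replicates 1 to 5, and at 50 mg/kg 10.98, 11.15, 11.39 and 10.48 in replicates 2 to 5. No dosed sample at these doses came near the control range, and at 50 mg/kg all 4 lay below every BDE-47 sample of that dose. Each agent may have been normalized on its own, so such levels are open to that. The difference in response between the agents at 50 mg/kg was not called (-1.01, limma adjusted p = 0.39). The change was 3.17 at 15 mg/kg (2.67 to 3.68, 9.02-fold, n = 4 against 5, limma adjusted p = 4.73e-14) and 2.85 at 50 mg/kg (2.34 to 3.35, 7.19-fold, limma adjusted p = 1.29e-12). These were 3.19 and 2.71 without the matched arrays. At 0.1 mg/kg 4 samples read 8.28, 8.79, 8.26 and 8.80, and replicate 2 read 10.42. That sample stood far above the other 4, and the group mean of 8.91 ± 0.89 (SD, n = 5) was not called against 0 mg/kg (0.75, 0.28 to 1.23, limma adjusted p = 0.632). Without replicate 2 the change was 0.38.

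Phenobarbital gave a graded rise of Ces2c. The 0 mg/kg samples were the most spread of the 4 control groups, at 9.11, 7.84, 8.29, 9.35 and 8.20. At 5 mg/kg they were 10.26, 10.21, 9.90, 10.29 and 10.47, and at 45 mg/kg 12.43, 12.50, 12.36, 12.32 and 12.21. The 3 groups did not overlap. Against 0 mg/kg the change was 1.67 at 5 mg/kg (1.19 to 2.15, 3.18-fold, limma adjusted p = 2.56e-05) and 3.81 at 45 mg/kg (3.33 to 4.28, 14-fold, limma adjusted p = 5.71e-19), with n = 5 in each group. The step from 5 to 45 mg/kg was 2.14 (1.66 to 2.62, limma adjusted p = 8.96e-09).

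No dose of PCB126 gave a call for Ces2c. The 0 group read 8.01, 8.06, 8.53, 8.02 and 8.15, the group at 10 read 8.26, 8.15, 7.86, 8.5 and 8.42, and the group at 50 read 8.44, 7.69, 7.93, 8.63 and 7.88. The group at 50 reached both below and above the controls. At 250 the values were 8.11, 8.28, 8.35, 8.03 and 8.18, inside the range of the controls. The change at 250 was 0.03 with an interval of -0.44 to 0.51 (limma adjusted p = 0.996). In the same livers Cyp1a1, the classic AhR target, rose by 4.24 (limma adjusted p = 4.26e-06).

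In order of group mean, Ces2c was highest at 45 mg/kg of phenobarbital (12.36 ± 0.11, SD, n = 5), followed by BDE-47 at 50 (11.92 ± 0.16, n = 5) and at 15 mg/kg (11.47 ± 0.40, n = 5). Next came DE-71 at 15 (11.33 ± 0.35, n = 4) and at 50 mg/kg (11 ± 0.39, n = 4), then phenobarbital at 5 mg/kg (10.22 ± 0.21, n = 5). Sample ranges of neighbours in this order overlapped for BDE-47 50 and 15 mg/kg, for BDE-47 and DE-71 at 15 mg/kg, and for DE-71 at 15 and 50 mg/kg. They did not overlap between phenobarbital at 45 mg/kg and BDE-47 at 50 mg/kg, or between DE-71 at 50 mg/kg and phenobarbital at 5 mg/kg. The other 9 groups had means of 8 to 8.91. Levels set side by side across agents are open to a normalization that looks separate for each agent.

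Ces1f/Cesl1 had the widest range of group means among the Ces1 probe sets. It rose at both doses of phenobarbital, at 15 and 50 mg/kg of DE-71 and at 50 mg/kg of BDE-47, each time by less than Ces2c. Ces1f is an endoplasmic reticulum esterase of the Ces1 group. With phenobarbital it went from 10.22, 10.32, 10.10, 10.16 and 10.37 at 0 mg/kg to 10.94, 11.39, 10.80, 11.25 and 10.98 at 5 mg/kg. At 45 mg/kg the values were 11.69, 11.32, 11.32, 11.33 and 11.56. Both dosed groups lay above all controls, and overlapped each other. The change was 0.84 at 5 mg/kg (0.54 to 1.13, limma adjusted p = 0.00281) and 1.21 at 45 mg/kg (0.91 to 1.5, 2.31-fold, limma adjusted p = 2.12e-08). The step of 0.37 between these doses was not called (limma adjusted p = 0.615).

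With BDE-47 the Ces1f/Cesl1 controls read 10.32, 10.22, 10.34, 10.30 and 10.47. The 15 mg/kg samples read 10.83, 11.21, 10.91, 10.80 and 10.93, and the 50 mg/kg samples 10.94, 11.11, 10.86, 11.17 and 11.05. All dosed samples lay above all controls. The rise of 0.69 at 50 mg/kg passed the test (0.38 to 1, 1.61-fold, limma adjusted p = 0.00489). The difference of 0.60 at 15 mg/kg missed it (0.29 to 0.91, limma adjusted p = 0.0568), and passed with all arrays as separate samples (limma adjusted p = 0.0171). Without the matched arrays the values were 0.61 at 15 mg/kg (limma adjusted p = 0.141) and 0.73 at 50 mg/kg (limma adjusted p = 0.00684).

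With DE-71 the Ces1f/Cesl1 controls were wide, at 10.42, 10.59, 9.59, 9.31 and 9.90. The 15 mg/kg samples were 11.30, 11.16, 11.32, 10.97 and 10.97, and the 50 mg/kg samples 11.27, 11.08, 10.98 and 11.28. The ranges did not overlap. The change was 1.16 at 15 mg/kg (0.85 to 1.47, limma adjusted p = 7.54e-07) and 1.19 at 50 mg/kg (0.88 to 1.5, limma adjusted p = 2.07e-07). Both calls rest on a spread shared by all 15 groups. With only the groups of the comparison in the fit they were lost (limma adjusted p = 0.123 and 0.0823). Without the matched arrays both calls held, with 1.21 at 15 mg/kg (limma adjusted p = 4.71e-06) and an adjusted p of 6.2e-07 in limma at 50 mg/kg. PCB126 at 250 gave 10.59, 10.59, 10.66, 10.31 and 10.84 against controls of 9.71, 10.46, 10.20, 10.30 and 10.12, ranges that overlap. The difference of 0.44 (0.15 to 0.73) was not called (limma adjusted p = 0.654).

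Ces1d, known as a triacylglycerol hydrolase of liver, varied widely within groups, with a median SD of 0.31, and passed the test against 0 mg/kg at no dose. Its largest differences were with phenobarbital, where controls spanned 10.93 to 11.66, the 5 mg/kg group 11.85 to 12.22 and the 45 mg/kg group 11.82 to 12.17. Both dosed groups lay above every control. The differences were 0.75 at 5 mg/kg (limma adjusted p = 0.362) and 0.76 at 45 mg/kg (0.33 to 1.18, limma adjusted p = 0.0503). The value at 45 mg/kg passed when dim probe sets were left out (limma adjusted p = 0.025) and in 4 other settings, and also without replicate 2 of 0 mg/kg (0.86, limma adjusted p = 0.0323). With DE-71 at 15 mg/kg the difference was 0.70 (limma adjusted p = 0.209), and samples of DE-71 ranged from 10.29 to 12.38.

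Ces1c is known as an esterase that the liver secretes into plasma in mice. Its bright probe set (1371100_at) rose by 0.44 with DE-71 at 15 mg/kg (0.23 to 0.66, n = 4 against 5, limma adjusted p = 0.0284), where the samples read 12.95, 12.91, 13.09, 13.04 and 12.90 against 12.66, 12.73, 12.27, 12.28 and 12.78. It was 0.47 without the matched arrays (limma adjusted p = 0.0425). The call was lost in 5 of the 9 fits that left out a sample, namely without replicates 3 or 4 of 0 mg/kg (limma adjusted p = 0.188 each) and without averaged replicates 1 and 2, replicate 3 or replicate 4 of 15 mg/kg (0.0709, 0.102 and 0.112). At the other doses of the 4 agents the differences of this probe set ran from -0.06 to 0.35 and none was called. The largest were 0.35 with phenobarbital at 5 mg/kg (limma adjusted p = 0.396) and 0.35 with PCB126 at 250 (0.15 to 0.55, limma adjusted p = 0.494). At 250 of PCB126 the samples read 12.91 to 13.12, all above controls of 12.30 to 12.85. The dim probe set (1397427_at), with a mean of 3.65 over all arrays, gave differences of -0.20 to 0.37 and no call. At DE-71 15 mg/kg, where the bright probe set was called, the dim one differed by -0.08.

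Ces1e, known in mice as the protein that holds beta-glucuronidase in the endoplasmic reticulum, had the smallest spread within groups of the 6 probe sets. Its median SD was 0.10, and its differences from 0 mg/kg ran from -0.12 to 0.14 with no call. At the highest doses BDE-47 gave 0.05, DE-71 0.01, phenobarbital -0.12 and PCB126 -0.03. Its group means spanned 0.51 over the 15 groups, against 4.36 for Ces2c, 1.48 for Ces1f/Cesl1, 1.05 for Ces1d, and 0.73 and 0.48 for the bright and dim probe sets of Ces1c.

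**Figure D2:**
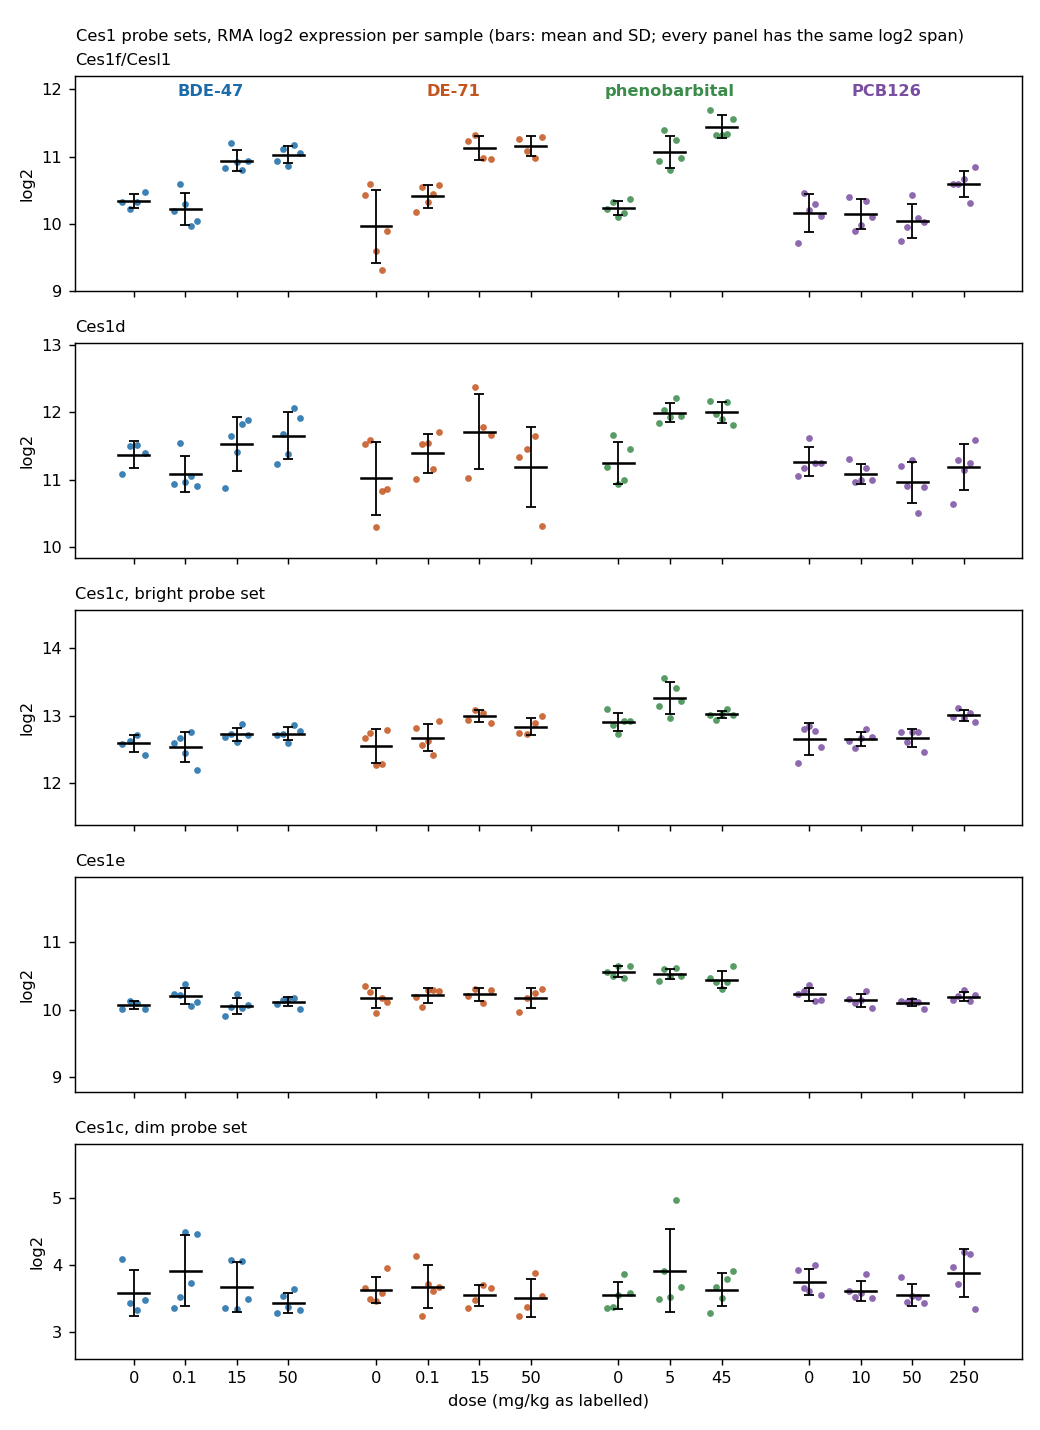
Log2 expression of the 5 Ces1 probe sets in each sample (points) with group means and SD (bars), by agent and dose, each panel on the same span of log2 units. Ces1f/Cesl1 rises from controls of 10.10 to 10.37 to 11.32 to 11.69 at 45 mg/kg of phenobarbital, while Ces1e stays between 9.90 and 10.66 in all samples.

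Counted over the 6 probe sets, none was called lower in any comparison. With BDE-47, 1 was called higher at 15 mg/kg, where 0.358% of all probe sets were, and 2 at 50 mg/kg, where 1.23% were. With DE-71, 3 were called higher at 15 mg/kg (0.483% of all) and 2 at 50 mg/kg (2.69% of all). These fell to 1 at each dose with only the groups of the comparison in the fit, and the first to 2 in fits without a sample. With phenobarbital, 2 were called higher at 5 mg/kg (0.058% of all) and 2 at 45 mg/kg (0.805% of all). Ces2c appears in every one of these counts. The total of 1764 probe sets called in either direction at DE-71 50 mg/kg fell to 423 without its replicate 2, which left the same 2 members called, with Ces2c at 2.85. The median change over the 6 probe sets was 0.22 at BDE-47 50 mg/kg, 0.23 at DE-71 50 mg/kg and 0.43 at phenobarbital 45 mg/kg, beside -0.01, 0.00 and -0.01 over all probe sets.

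No member was called at 0.1 mg/kg of BDE-47 (0% of all probe sets) or of DE-71 (0%), or with PCB126 at 10 (0%), 50 (0%) or 250 (0.0322%). At an unadjusted limma p below 0.05 there were 0 members and 1170 probe sets for BDE-47 at 0.1 mg/kg, and 2 members and 1929 probe sets for DE-71 at 0.1 mg/kg. For PCB126 there were 0 members and 1024 probe sets at 10, 0 and 1736 at 50, and 2 and 1812 at 250. The 2 at 250 were Ces1f/Cesl1 and the bright probe set of Ces1c, both higher.

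**Figure D3:**
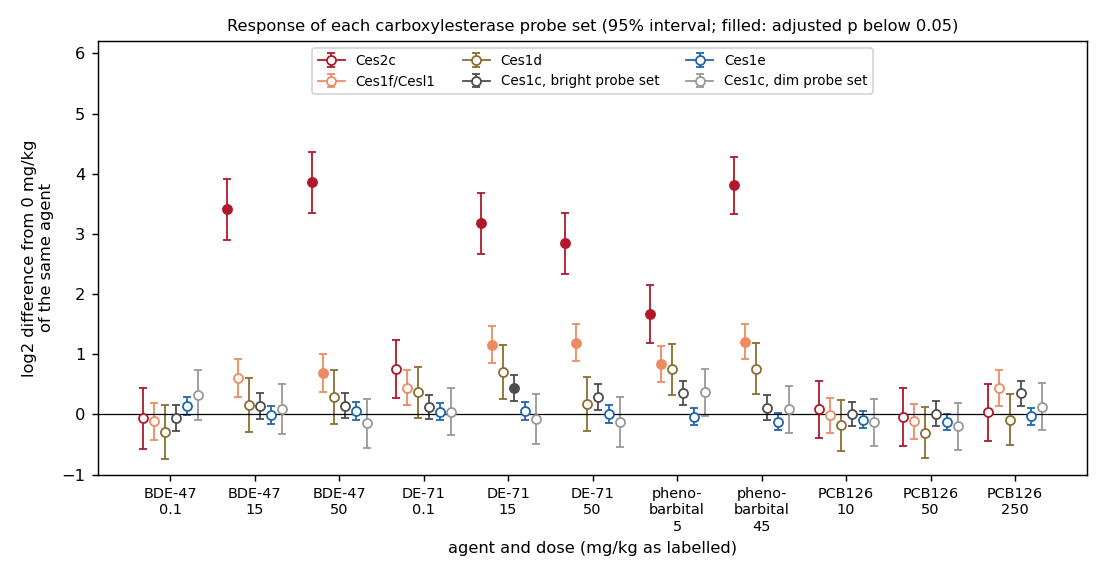
Log2 difference from 0 mg/kg of the same agent for each of the 6 probe sets (colours) at every dose, with 95% intervals from limma; filled points have an adjusted p below 0.05. Ces2c stands at 2.85 to 3.86 at the middle and high doses of both flame retardants and at 45 mg/kg of phenobarbital, where Ces1f/Cesl1 lies between 0.60 and 1.21.

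Steps between doses were tested for the same probe sets. From 15 to 50 mg/kg, Ces2c differed by 0.45 with BDE-47 (-0.03 to 0.93, limma adjusted p = 1) and by -0.33 with DE-71 (-0.86 to 0.21, limma adjusted p = 0.719), or by 0.58 and -0.47 without the matched arrays. No member was called in these steps, for which 0% and 0.0773% of all probe sets were called, nor from 50 to 250 of PCB126 (0.0258%). At an unadjusted limma p below 0.05 the counts were 0 members and 936 probe sets for BDE-47, 1 and 3282 for DE-71, and 2 and 1580 for PCB126. From 5 to 45 mg/kg of phenobarbital Ces2c was the single member called (0.358% of all).

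BDE-47 and DE-71 were given at the same doses, so the mixture's response was compared with that of its single congener, in 3 comparisons over all probe sets. At 50 mg/kg the response of Ces2c to DE-71 minus that to BDE-47 was -1.01 (-1.73 to -0.30, limma adjusted p = 0.39), and for Ces1f/Cesl1 it was 0.50 (0.06 to 0.94, limma adjusted p = 0.489). At 15 mg/kg these differences were -0.23 (-0.95 to 0.48) for Ces2c and 0.56 (0.12 to 1) for Ces1f/Cesl1. Without the matched arrays they were -1.18 and 0.52 at 50 mg/kg and -0.14 and 0.60 at 15 mg/kg, none called. At 0.1 mg/kg they were 0.82 (0.12 to 1.51) and 0.56 (0.13 to 0.99), and the first fell to 0.44 without replicate 2 of DE-71. No member was called at 0.1 mg/kg (0% of all probe sets), 15 mg/kg (0.0129%) or 50 mg/kg (0.0387%). The unadjusted limma counts were 3 members and 1642 probe sets, 2 and 1475, and 2 and 2858. The intervals leave room for differences of over 1 log2 unit in Ces2c at 50 mg/kg, and a p that misses the threshold does not show that the agents act alike.

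The response of Ces2c was then set against that of each Ces1 probe set on the same arrays, at the highest dose of each agent, in 20 comparisons. The difference Ces2c minus Ces1 was taken within each sample, and exact permutation tests (two-sided) compared dosed and control samples. The contrast was chosen with the rise of Ces2c known, so its p values are not independent evidence of it. For BDE-47 the rise of Ces2c exceeded that of Ces1f/Cesl1 by 3.17 (2.87 to 3.47). It exceeded that of Ces1d, the bright probe set of Ces1c and Ces1e by 3.58 to 3.81. Over the dim probe set of Ces1c the excess was 4.01, but its mean log2 of 3.65 is low, and a change may not show there. For phenobarbital the excess was 2.60 over Ces1f/Cesl1 (1.80 to 3.35), 3.05 over Ces1d and 3.92 over Ces1e. For DE-71 it was 1.65 over Ces1f/Cesl1 (0.73 to 2.58), 2.67 over Ces1d and 2.84 over Ces1e. Without the matched array of each dosed group, the excess over Ces1f/Cesl1 was 3.17 for BDE-47 and 1.47 for DE-71. In these 3 agents every dosed sample lay above every control, and each exact permutation p was the smallest the design allows, 0.0159 for the flame retardants and 0.0079 for phenobarbital (adjusted p = 0.0212). For PCB126 no difference passed. That from Ces1f/Cesl1 was -0.40 (-0.80 to 0.03, exact permutation adjusted p = 0.0694), and it passed after another quantile normalization (-0.41, adjusted p = 0.0496) and without replicate 2 of the controls (-0.50, adjusted p = 0.0198).

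**Figure D4:**
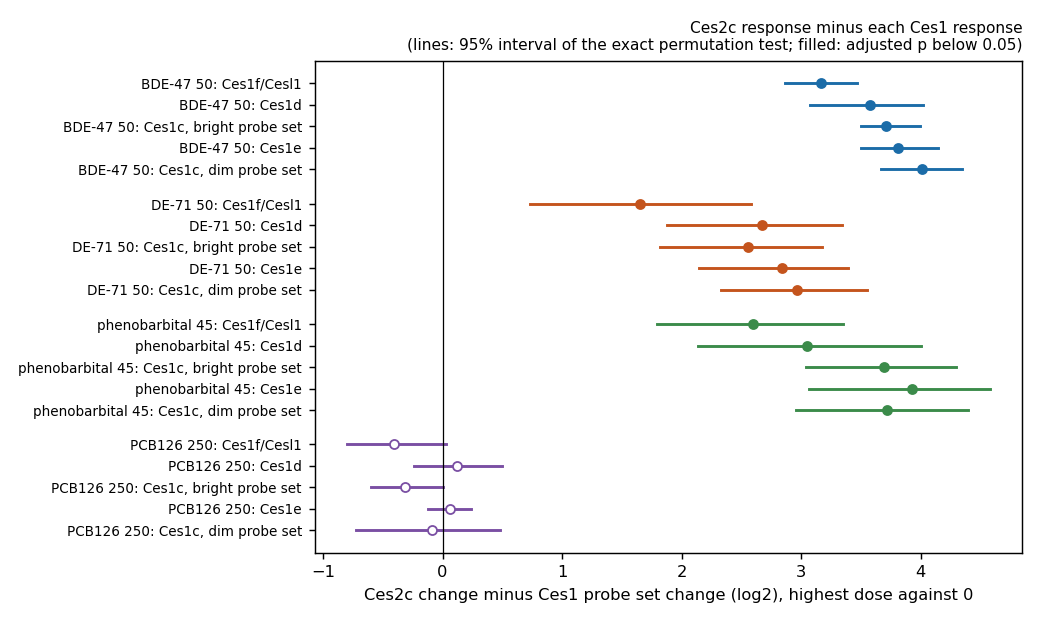
Change of Ces2c minus change of each Ces1 probe set at the highest dose of each agent (points, log2) with 95% intervals from inverting the exact permutation test (lines). The 15 values for BDE-47, DE-71 and phenobarbital lie between 1.65 and 4.01, and the 5 for PCB126 between -0.40 and 0.12. They include the dim probe set of Ces1c (mean log2 3.65), a low signal at which a change may not show.

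Likeness to Ces2c was measured as Pearson's r over the 72 samples, after the 0 mg/kg mean of each agent was taken off. Samples of a dose group share their treatment, so r describes a common pattern over groups. It was 0.78 for Ces1f/Cesl1, 0.54 for Ces1d, 0.36 for the bright probe set of Ces1c, -0.02 for Ces1e and -0.03 for the dim one. Of all single-gene probe sets, the 8 genes most like Ces2c were Cltrn (0.94), App (0.94), Aldh1a1 (0.93), Cyp2c6v1 (0.93), Cyp3a23-3a1 (0.92), Cndp2 (0.92), Cyp2c7 (0.91) and Zdhhc2 (0.91). Their sizes differed. At 50 mg/kg of BDE-47 Cltrn, which encodes collectrin, changed by 4.28 and Cyp2c7, a cytochrome P450, by 4.87, beside 3.86 for Ces2c. Aldh1a1, which oxidises retinal to retinoic acid, changed by 1.88 there, App, the amyloid precursor protein gene, by 1.36, and Cyp3a23-3a1, a P450 known as a PXR target, by 0.89. At 5 mg/kg of phenobarbital only Cyp2c6v1 (0.64, limma adjusted p = 8.09e-06) and Cyp2c7 (3.27, limma adjusted p = 0.0152) of the 8 passed the test, while the differences of the rest ran from 0.18 to 0.68. With PCB126 at 250 all 8 lay between -0.12 and 0.22. The PCB126 samples were among the 72 that chose these genes, so a flat pattern there is partly built into the choice.

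**Figure D5:**
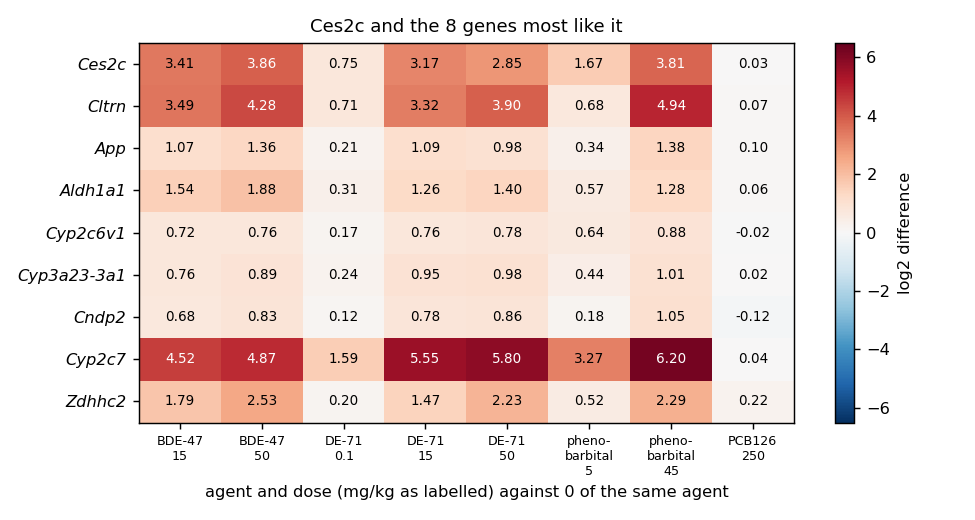
Log2 difference from 0 mg/kg of the same agent (colour and printed value) for Ces2c and the 8 genes with the highest r with it, at 8 doses. At 50 mg/kg of BDE-47 the values run from 0.76 for Cyp2c6v1 to 4.87 for Cyp2c7, and at 250 of PCB126 from -0.12 to 0.22. The genes were chosen by r over these same samples, so a pattern shared with Ces2c is partly built in.

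The single high sample of DE-71 at 0.1 mg/kg, replicate 2, was also the highest of its group for all 8 of these genes. It was among the 72 samples that chose them by their likeness to Ces2c, so this is partly built into the choice and is given as a description. Cltrn read 6.31 there against 2.74 to 3.20 in the other 4 samples, Cyp2c7 12.88 against 7.39 to 8.96, and Aldh1a1 12.35 against 11.33 to 11.74. A probe set shared by Cyp2b2 and Cyp2b1, the textbook CAR targets, read 13.52 against 11.51 to 12.33, and Cyp1a1 read 12.10 against 7.05 to 9.96. These last probe sets were not chosen by r. Among the Ces1 members, this one of 5 samples ranked 2 for Ces1f/Cesl1 (10.54), 3 for Ces1d (11.52), 4 for the bright probe set of Ces1c (12.57) and 5 for Ces1e (10.04). Why this sample stands apart was not tested.

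Of the CAR and PXR targets listed beside the members, 21 were measured on single-gene probe sets. The list was chosen with earlier results of these data known. The highest dose of BDE-47 raised 17 and lowered 0, that of DE-71 raised 15 and lowered 0, and that of phenobarbital raised 16 and lowered 0, with median changes of 0.95, 0.98 and 1.01. Of all probe sets, 1.23%, 2.69% and 0.805% were called higher. At 5 mg/kg of phenobarbital 3 rose (0.058% of all), and at 250 of PCB126 0 passed in limma (0.0322% of all, and 5 of the list at an unadjusted p below 0.05), with medians of 0.44 and 0.02. Ugt2b1, a glucuronosyltransferase, rose by 1.02, 1.22 and 1.38 at the highest doses of BDE-47, DE-71 and phenobarbital. Abcc3, an export pump, rose by 1.72, 1.75 and 1.26, and Ephx1, the microsomal epoxide hydrolase, by 1.52, 1.74 and 1.36. The probe set for Cyp2b2 and Cyp2b1 rose by 2.17, 2.23 and 1.97, and by 1.13 at 5 mg/kg of phenobarbital (limma adjusted p = 0.00383). These changes were smaller than that of Ces2c in the same comparison, while those of Cyp2c7 on the same list were larger, at 4.87, 5.80 and 6.2 at the highest doses. The sizes were not tested against each other. Control levels differed too: in DE-71 controls the probe set for Cyp2b2 and Cyp2b1 already read 11.15 to 12.06. Ces2c read 7.93 to 8.41 there and Cyp2c7 5.34 to 8.85. Whether a high starting signal limited the measured change was not tested. The receptor genes Nr1i3 (CAR), Nr1i2 (PXR), Rxra and Ahr were not called at any highest dose. Their differences ran from -0.64 for Nr1i3 with BDE-47 to 0.89 for Ahr with DE-71.

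Of 7 AhR targets, 3 rose with PCB126 at 250 (Cyp1b1 by 4.53, Cyp1a1 by 4.24 and Cyp1a2 by 0.91), a group in which no carboxylesterase was called. With DE-71 at 50 mg/kg 5 rose, led by Cyp1a1 at 6.28, and with BDE-47 at 50 mg/kg Cyp1a1 alone at 2.11 (limma adjusted p = 0.0479). Of all probe sets, 0.0322%, 2.69% and 1.23% were called higher in these comparisons. None was called by limma at 45 mg/kg of phenobarbital (3 at an unadjusted p below 0.05), where Cyp1a1 differed by 1.11 (limma adjusted p = 0.521) and Ces2c rose 14-fold. The part of AhR in the changes of the carboxylesterases was not tested.

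Other hydrolases of liver moved in both directions, with called changes of -0.50 to 0.61 at the highest doses. Of 26 measured, 2 were called higher and 2 lower with 50 mg/kg of BDE-47, where 627 of all 31042 probe sets were called in either direction: Bphl, a hydrolase of amino acid ester prodrugs, rose by 0.49 and Esd, an S-formylglutathione hydrolase, by 0.26, while Aadac, the arylacetamide deacetylase, fell by 0.40 and Lipc, hepatic lipase, fell by 0.46. At 50 mg/kg of DE-71, with 1764 of all probe sets called, Cmbl rose by 0.33 and Pon1, a paraoxonase, by 0.23, while Aadac fell by 0.46 and Lipc fell by 0.50. At 45 mg/kg of phenobarbital, with 431 called, Mgll, the monoacylglycerol lipase, rose by 0.61 and Lipc fell by 0.50. At an unadjusted limma p below 0.05 the list had 10, 9 and 6 of 26, beside 3648, 5846 and 3126 of all probe sets. The medians over the list were 0.02, -0.04 and -0.01. Of 10 genes of fat storage, Dgat2, which makes triacylglycerol, fell by 0.41 with BDE-47 and fell by 0.33 with DE-71 at 50 mg/kg. Dgat1 rose by 0.52 with DE-71, and Scd, a fatty acid desaturase, fell by 3.02 at 45 mg/kg of phenobarbital.

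Markers of cell types moved in some of the groups in which Ces2c rose. Of 7 hepatocyte markers, Ass1 fell by 0.89 at 15 and by 0.94 at 50 mg/kg of BDE-47, and Ass1, Cps1 and Serpina1 fell by 0.79, 0.47 and 0.22 at 50 mg/kg of DE-71. Of all 31042 probe sets, 26 and 246 were called lower at those doses of BDE-47, and 930 at that of DE-71. Of 5 Kupffer cell and macrophage markers, 4 fell at 50 mg/kg of BDE-47 (Clec4f by -0.80, Csf1r by -0.68, Cd163 by -0.62 and Cd68 by -0.60). The mean of the 5 was 7.57 there against 8.18 in controls. Of 4 cholangiocyte markers, only Epcam was called at the highest doses of BDE-47, DE-71 and phenobarbital, where it rose by 1.35, 1.28 and 0.74. The medians over the 4 were -0.11, 0.27 and -0.0002, so the list as a whole did not follow Epcam. At 50 mg/kg of DE-71 the stellate cell marker Lrat fell by 0.58 and the endothelial marker Kdr fell by 0.49. No marker of pancreas, gut, lymphocytes or erythroid cells was called in these comparisons. The part of these markers in the rise of Ces2c was not tested.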

How the data were processed

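Rat liver RNA of 15 groups was measured on 74 Affymetrix rat arrays. The deposited log2 values were made by the authors with RMA, per the submitters' processing notes (version not given). Sorted values of different arrays were closer within an agent (SD 0.025 to 0.047) than over all arrays (0.07), so each agent may have been normalized on its own, although the labels do not say so, and each dose was compared with 0 mg/kg of its own agent. The members and gene lists were chosen with earlier results of these data known. Of 31099 probe sets, 57 array controls were left out. Gene names come from the platform annotation: 20826 probe sets have a single symbol, 436 several and 9780 none. A listed gene was read from its probe set with the highest mean.

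Arrays of the same group that differed by a root mean square below 0.3, over the 300 most variable genes with mean log2 of at least 7, were averaged. The fit with all 74 arrays is an alternative. A linear model of 15 group means was fitted to all 31042 probe sets with limma 3.58.1 in R 4.3.3 (57 residual and 4.35 prior degrees of freedom), and two-sided p values were adjusted over all probe sets of a contrast (Benjamini-Hochberg). Calls were made at an adjusted p below 0.05, and the words rose and fell are kept for them. The exact permutation tests went through every split of the samples, in Python 3.11.15 with numpy 2.4.6. Named genes were the members, the 8 genes with the highest r with Ces2c, up to 4 called genes of each list by p, and the CAR, PXR and AhR genes with Cyp1a1, Cyp3a23-3a1 and Cyp2b. The fit was tested on simulated data. Precision is limited by how many arrays a group has, since intensities carry no read depth. Alternatives were all arrays, matched arrays left out, only the groups of a comparison in the fit, quantile normalization and dim probe sets left out. Dim probe sets were those whose highest group mean was below log2 6, so a high dosed group could keep a probe set in. Further alternatives were a row per gene, array weights, a replicate block and leaving out each sample. Deviations of same-numbered samples from their group means had a mean correlation per agent of -0.01 to 0.08 (lowest -0.39 to -0.09). For samples of other numbers it was -0.02 to 0.00. These means were small, so replicate numbers were not taken as pairs, although the matched replicate 3 arrays of BDE-47 share a number.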

Additional observations from a re-analysis of the deposited data

Results flagged for a closer look

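Of 90 sets of values (6 probe sets in 15 groups), 7 held a sample whose gap to the nearest of the others was large for the group's range by Dixon's test, which chance does in about 1 of 20 groups. Ces2c read 10.42 in replicate 2 of DE-71 0.1 mg/kg, where the others read 8.26 to 8.80, and 8.53 in replicate 3 of PCB126 0, where the others read 8.01 to 8.15. Ces1d read 11.55 in replicate 2 of BDE-47 0.1 mg/kg, against 10.90 to 11.05 in the others. Ces1e read 10.01 in replicate 5 of PCB126 at 50, below 10.11 to 10.14 in the others. The dim probe set of Ces1c (1397427_at) gave the remaining 3: 4.97 in replicate 4 of phenobarbital 5 mg/kg (others 3.50 to 3.91), 3.87 in replicate 4 of PCB126 at 10 (others 3.51 to 3.61) and 3.83 in replicate 1 of PCB126 at 50 (others 3.43 to 3.54).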

How the results depend on the processing

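Over 108 member values and 2106 alternatives, 2086 kept direction and side of the threshold, 9 lost a call, 11 gained one and 0 reversed. Every call of Ces2c held in all alternatives run. Ces1f/Cesl1 at BDE-47 15 mg/kg gained its call with all arrays (0.61, limma adjusted p = 0.0171), only the groups of the comparison (0.60, 0.0272), dim probe sets left out (0.60, 0.0283) and array weights (0.63, 0.0193), so that 2 members were called under the settings with all arrays, only those groups, or weights. With only the groups of the comparison in the fit it lost its calls at DE-71 15 mg/kg (1.16, 0.123) and 50 mg/kg (1.19, 0.0823), leaving 1 member called at each. Ces1d at phenobarbital 45 mg/kg gained a call in 5 settings, Ces1c at phenobarbital 5 mg/kg gained it with array weights (0.38, 0.0451), and Ces1c at DE-71 15 mg/kg lost it with only its own groups (0.44, 0.409) and after quantile normalization (0.40, 0.068). Ces2c minus Ces1f/Cesl1 for PCB126 at 250 passed after quantile normalization (-0.41, exact permutation adjusted p = 0.0496), and ranged from -0.50 to -0.32 over fits without a sample. The cause of these changes was not tested.

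Replicate numbers as a replicate block changed no call of a member: Ces2c changed by 3.8 at BDE-47 50 mg/kg, 2.78 at DE-71 50 mg/kg and 3.81 at phenobarbital 45 mg/kg. Counts of all probe sets moved more. At DE-71 50 mg/kg 1764 became 132 with only its own groups, 613 with array weights and 423 without replicate 2. At BDE-47 50 mg/kg 627 became 1106 with all arrays and 1016 with weights. At phenobarbital 45 mg/kg 431 became 925 with weights, and at 5 mg/kg 20 became 53. At 15 mg/kg 137 became 349 for BDE-47 and 173 became 347 for DE-71 with all arrays. Probe sets with several genes have no value in the fit with a row per gene, and the dim Ces1c probe set has none where dim probe sets were left out.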
